A study of Mus musculus with 6 samples.

Results

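The genes described here are 8 BTB zinc finger genes: Zbtb32, Zbtb7a, Zbtb7b, Zbtb16, Zbtb20, Zbtb38, Zbtb1 and Bcl6. They were taken by symbol from a table of 54232 genes, and all 8 were found. The set was selected on measured values, with the differences between knockout and wild type in these same libraries known. The values of the 8 in that contrast are therefore given as a description, with no test. The libraries are RNA-seq of regulatory T cells (Treg cells), CD4 T cells that restrain other immune cells, isolated as GFP+ cells from the spleens of mice. Of the 6 libraries, 3 came from wild-type mice (WT) and 3 from mice with a conventional BAF60b knockout (KO), a deletion carried by all cells of the animal and not only by Treg cells. Smarcd2 encodes BAF60b, which belongs to the SWI/SNF complex that moves nucleosomes. The labels give no strain, age or treatment and do not say which gene drives GFP. They do not say whether each library is a separate mouse, so the spread behind each p-value is that of the libraries and may be in part technical.

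BTB zinc finger proteins are transcription factors built from an N-terminal BTB domain, through which they pair and recruit co-repressors such as NCOR1 and BCOR, and C-terminal zinc fingers that read DNA. Several of them set lymphocyte fate. ThPOK (Zbtb7b) keeps CD4 T cells from taking the CD8 programme, PLZF (Zbtb16) drives innate-like T cells, and BCL6 directs follicular helper and follicular regulatory T cells. ZBTB32, also called ROG or PLZP, is induced by lymphocyte activation and restrains cytokine production and proliferation.

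Totals lay between 18167053 and 22502804 reads per library. Levels are CPM, reads scaled to library size with TMM factors. A count of 0 allows up to 3 reads, between 0.133 and 0.164 CPM, a limit that covers counting error only. Reads of the targeted gene, Smarcd2, numbered 3729, 4173 and 3807 in WT 1, 2 and 3, and in KO 1, 2 and 3 there were 1157, 1131 and 1335 (log2 fold change -1.77, SE 0.05). Foxp3, the Treg lineage factor, was at 557.7 ± 7.37 CPM in WT, against 595.8 ± 6.94 CPM in KO (SD, n = 3). It was higher in every KO library but not called (KO − WT log2 difference 0.10, SE 0.04, edgeR adjusted p = 0.253). Other genes share exon sequence with Foxp3, among them Flicr (18.6% of its exon length) and Ccdc22 (12.9%), which makes its count uncertain. Of 10 B cell markers, Ebf1 had no read in WT. Y-linked transcripts had no read in WT 1 and KO 2 and were present in the other 4 libraries, so each genotype mixes libraries with and without them. Relative to KO 3, the highest, their summed level was 0.32 in WT 2, 0.55 in WT 3 and 0.68 in KO 1. The 3 libraries of a genotype are therefore not all repeats of 1 sample.

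Zbtb32 (ENSMUSG00000006310) lies on chromosome 7, 30589681 to 30598909, minus strand (mm10). Its upstream sequence is shown because it is the gene with the difference described below. The 250 bases upstream of its first RefSeq start site, read in the direction of transcription (RefSeq, GRCm38.p6), are chr7:30598910-30599159, minus strand, with CCAAT in capitals.
Zbtb32 upstream: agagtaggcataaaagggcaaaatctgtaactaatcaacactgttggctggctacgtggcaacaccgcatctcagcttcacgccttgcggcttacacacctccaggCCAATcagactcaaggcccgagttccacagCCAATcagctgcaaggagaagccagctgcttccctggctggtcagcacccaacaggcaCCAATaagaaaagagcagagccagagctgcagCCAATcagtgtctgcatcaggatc
The window holds 4 copies of CCAAT, the core that the factor NF-Y reads, beginning 144, 114, 56 and 24 bases before the start. This motif was looked for after the sequence had been seen. A second RefSeq start of Zbtb32, with the upstream window chr7:30592943-30593192, has no CCAAT. Of 32851 promoter windows of the same length, 33.8% hold at least 1 CCAAT on either strand and 0.84% hold at least 4. Searched on both strands, this window had no match to TGANTCA (AP-1, in 6.75% of windows), AGATAA (the site of GATA3 and its relatives, 9.99%), TGGAAA (NFAT, 18.6%), TGTTTAC (forkhead, 3.17%) or TTCNNNGAA (STAT, 7.02%). No match says only that these letters are not in this window. RefSeq windows were listed for 7 of the 8 genes, and besides the first Zbtb32 window only the first Zbtb7b window held a CCAAT, with 1 copy.

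Zbtb32 stood apart from the other members. Its reads numbered 121, 146 and 176 in WT 1, 2 and 3, against 424, 536 and 572 in KO 1, 2 and 3. That is 6.63, 6.97 and 8.87 CPM in WT, against 21.3, 27.3 and 25.3 CPM in KO. Every KO library was above every WT library, and the lowest KO value was 2.40 times the highest WT value. The means were 7.49 ± 1.21 CPM in WT, against 24.6 ± 3.04 CPM in KO (SD, n = 3), a ratio of 3.29 and a fitted log2 fold change of 1.71 (SE 0.13). This and all later log2 fold changes and log2 differences are KO minus WT from the edgeR fit. Among 13602 genes tested, 47 had a larger log2 fold change, a place given as a description because this contrast chose the set. Within a genotype the libraries differed by a coefficient of variation of 16.1% in WT and 12.3% in KO, where counting error alone would give about 8.23% in WT. With 1 library left out in turn, the log2 fold change lay between 1.63 and 1.85.

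**Figure D1:**
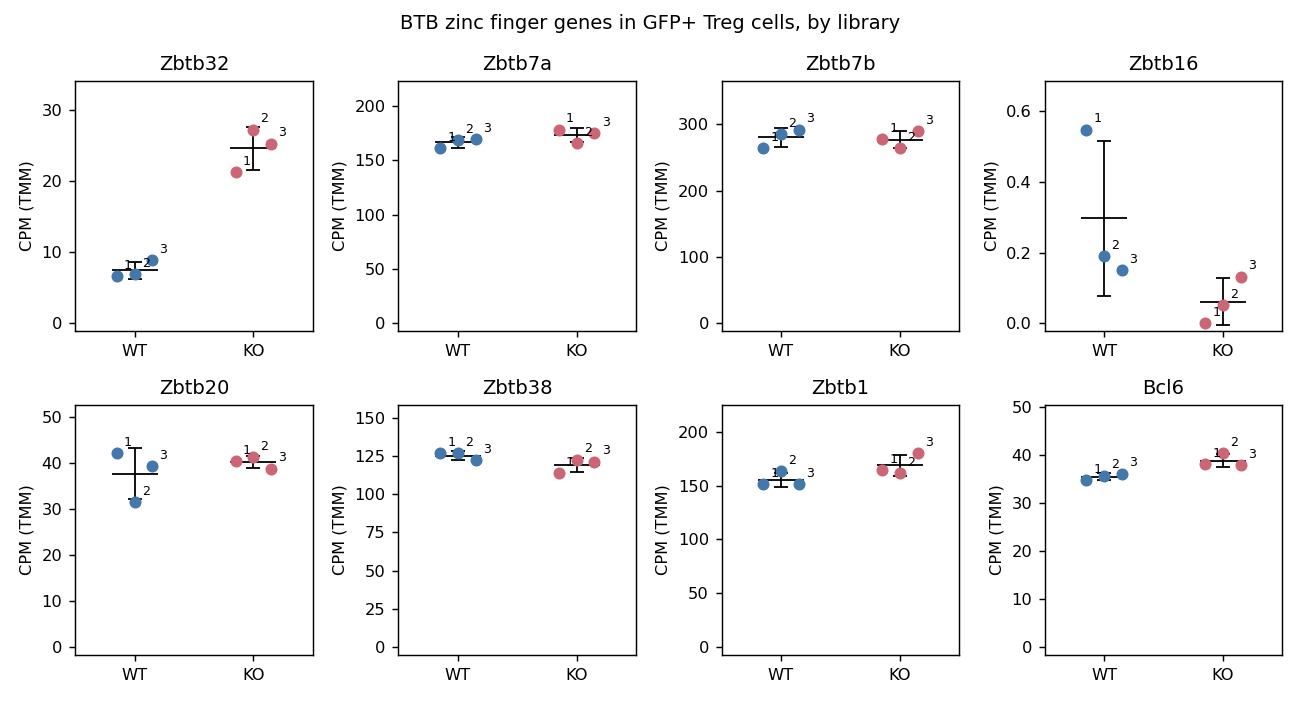
CPM of the 8 genes in each library (points, numbered by replicate; WT blue, KO red), with the mean and SD of 3 libraries as black bars and a separate linear axis for each gene that includes 0. The 3 KO libraries of Zbtb32 lie between 21.3 and 27.3 CPM, above the WT libraries at 6.63 to 8.87 CPM, while the genotypes lie close together for Zbtb7a, Zbtb7b, Zbtb20, Zbtb38, Zbtb1 and Bcl6.

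The KO to WT ratio of Zbtb32 was 4.11 between WT 1 and KO 2, the single pair without Y-linked transcripts, and 2.94 among the 2 WT and 2 KO libraries with them. Since the groups do not overlap, any such split gives a ratio above 1, and these ratios show only its size. Of 25 genes within 10 kb of a member, 10 were tested and edgeR, DESeq2 and limma-voom called 0, with 2 at an unadjusted p under 0.05. Kmt2b, a histone H3 lysine 4 methyltransferase gene that begins 955 bases beyond the downstream end of Zbtb32 on the same strand, was at 249.0, 265.6 and 267.6 CPM in WT, against 285.4, 264.9 and 292.3 CPM in KO (KO − WT log2 difference 0.11, SE 0.05, edgeR adjusted p = 0.304). Upk1a, a uroplakin gene 4183 bases away, had a mean of 0.473 CPM in WT, against 0.750 CPM in KO (KO − WT log2 difference 0.66, SE 0.36, adjusted p = 0.342). Annotated exons of Zbtb32 overlap those of no other gene.

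All gene lists in this report, marker lists included, were chosen with earlier results of these data known. Shares called in a list are therefore a description and no test of the list. Markers of other cells were unevenly spread over the libraries. The summed level of 6 plasma cell markers ran from 17.6 to 29.9 CPM in WT, against 69.6, 70.3 and 21.9 CPM in KO 1, 2 and 3. Jchain, the joining chain of IgA and IgM, followed the sum, at 4.82 CPM in KO 3 against 18.7 and 18.4 CPM in KO 1 and KO 2. All 4 tested plasma cell markers were higher at an unadjusted edgeR p under 0.05, where 20.4% of all tested genes were that low. By adjusted p 1 of the 4 was called, or 25% beside 6.45% of all tested genes. This was Sdc1, the plasma cell surface proteoglycan. It rose from at most 0.239 CPM in WT to 1.56, 1.98 and 0.619 CPM (KO − WT log2 difference 2.84, SE 0.53, edgeR adjusted p = 0.0123). The 8 myeloid markers, 5 of them tested and 0 called (edgeR, DESeq2, limma-voom, and 0 at an unadjusted p under 0.05), summed to between 24.9 and 30.9 CPM in WT, against 36.6, 82.8 and 14.7 CPM in KO. KO 2 also had the highest sum of 6 erythroid markers, 12.5 CPM against at most 3.23 CPM elsewhere. The 6 NK cell markers, with Ncr1 and Klra8 at 0 in WT, gave 6.71 to 8.79 CPM in WT, against 7.38 to 8.54 CPM in KO. This sum hides moves in both directions. Of 3 tested, 1 was called, or 33.3% beside 6.45% of all tested genes. It was Klrb1c, lower in KO (log2 fold change -1.14, edgeR adjusted p = 0.0353), with an uncertain count described below. Eomes was higher in every KO library but not called (0.71, adjusted p = 0.0560). For the 10 B cell markers the sum was 16.8 to 21.2 CPM in WT, against 14.1 to 20.1 CPM in KO, with Cd22 rising (log2 fold change 1.19, adjusted p = 0.0174) and Cd79b falling (-0.69, adjusted p = 0.0106). The call of Sdc1 was lost without any 1 WT library, that of Cd22 without WT 1 or WT 2 and that of Cd79b without WT 1. In KO 3 the plasma cell sum lay inside the WT range and the myeloid and B cell sums below it. Of the tested plasma cell markers there, Sdc1 (0.619 CPM) and Derl3 (1.06 CPM) were above every WT library. Jchain (4.82 CPM) and Igha (15.3 CPM) lay inside the WT range. Zbtb32 in KO 3, at 25.3 CPM, lay between KO 1 and KO 2. The part of such other cells in the Zbtb32 level of the KO libraries was not tested. In RNA from a bulk population, more cells with a transcript and more transcript per cell cannot be told apart.

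**Figure D2:**
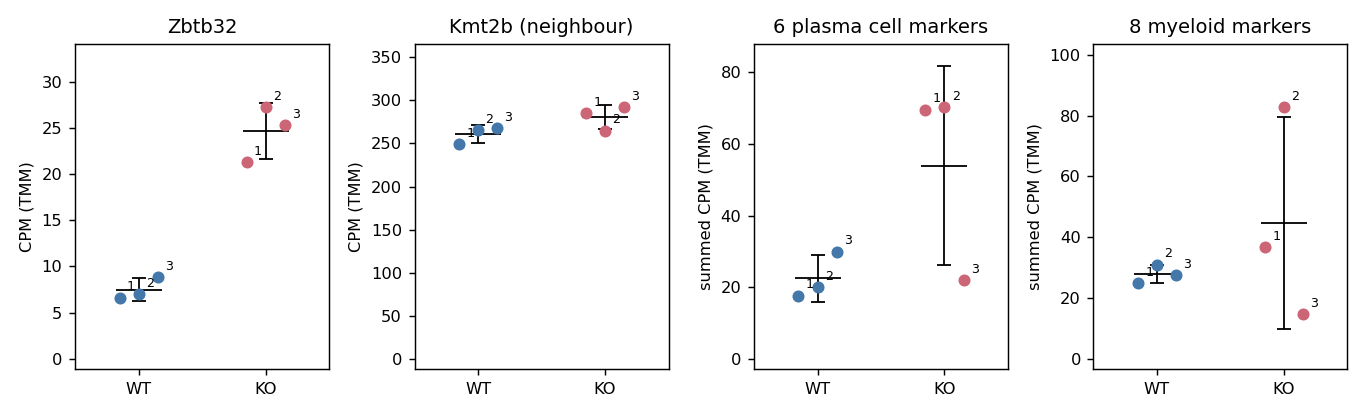
Zbtb32, its neighbour Kmt2b, the sum of 6 plasma cell markers and the sum of 8 myeloid markers in each library, in CPM (points numbered by replicate, bars mean and SD of 3 libraries). KO 3 lies at 21.9 CPM for plasma cell markers, 14.7 CPM for myeloid markers and 25.3 CPM for Zbtb32.

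The regulators of the CD4 lineage choice, Zbtb7b and its paralog Zbtb7a, were the highest of the 8 per length of exon and close in both genotypes. Zbtb7b (ThPOK; ENSMUSG00000028042, chromosome 3, 89377644 to 89394776) was at 264.3, 284.9 and 292.0 CPM in WT, against 277.8, 263.9 and 289.1 CPM in KO (KO − WT log2 difference -0.02, SE 0.06). The 2 ranges overlap almost entirely. The sign of this small value changed with the library left out, from -0.06 to 0.01. Zbtb7a (LRF; ENSMUSG00000035011, chromosome 10, 81135220 to 81152995) was at 161.2, 169.0 and 170.0 CPM in WT, against 178.5, 165.8 and 175.5 CPM in KO (KO − WT log2 difference 0.06, SE 0.05). Its ranges overlap too, KO 2 lying below WT 2 and WT 3. An antisense gene, Gm15417, shares 116 bases of exon with Zbtb7b and stayed at or under 2.30 CPM in every library, far below Zbtb7b itself.

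Bcl6, the follicular programme repressor (ENSMUSG00000022508, chromosome 16, 23965052 to 23988852), was slightly higher in every KO library. It had 34.7, 35.7 and 36.1 CPM in WT, against 38.1, 40.4 and 37.9 CPM in KO, a ratio of 1.09 (KO − WT log2 difference 0.13, SE 0.06). The gap between the highest WT and the lowest KO library was small, and Bcl6 was not called by the fit. Zbtb32 and Bcl6 were the 2 tested members whose groups did not overlap upward, a pattern seen in 12.6% of all tested genes, or 25.7% when either direction is counted. Among 10 follicular T cell markers, 9 of them tested, 1 rose, or 11.1% called beside 6.45% of all tested genes. DESeq2 called 2. At an unadjusted edgeR p under 0.05, 3 were higher and 1 lower, where 20.4% of all tested genes were that low. The called gene was Icos (log2 fold change 0.24, edgeR adjusted p = 0.0377), a costimulatory receptor whose call was lost in 7 of 16 alternatives. Slamf6 was higher in every KO library but not called (0.20, adjusted p = 0.0571). Cxcr5, the follicle-homing receptor, was lower in every KO library but not called. It had 92.4 ± 4.27 CPM in WT, against 75.7 ± 12.4 CPM in KO (log2 fold change -0.29, adjusted p = 0.143).

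Zbtb16 (PLZF; ENSMUSG00000066687, chromosome 9, 48654297 to 48836222) was near the limit of detection. It had 10, 4 and 3 reads in WT and 0, 1 and 3 reads in KO, 17 against 4 in all. WT 3 and KO 3 had the same number of reads, and 4 of the 6 libraries were at or under 3 reads. It was the member left out by the filter on low counts, so no fold change is given.

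The 3 remaining members are expressed in many tissues. Zbtb1, required for lymphocyte development (ENSMUSG00000033454, chromosome 12, 76370266 to 76396950), had 151.3, 163.0 and 151.3 CPM in WT, against 164.6, 161.6 and 180.0 CPM in KO (KO − WT log2 difference 0.12, SE 0.06). KO 2 lay below WT 2, so the groups overlap. Zbtb38, a protein that binds methylated DNA (ENSMUSG00000040433, chromosome 9, 96682770 to 96752831), had 126.8, 126.8 and 122.1 CPM in WT, against 113.6, 122.6 and 121.3 CPM in KO (KO − WT log2 difference -0.07, SE 0.05). KO 2 was above WT 3. Zbtb20, which acts in plasma cells, liver and brain (ENSMUSG00000022708, chromosome 16, 42875881 to 43642602), had 42.2, 31.6 and 39.4 CPM in WT, against 40.6, 41.4 and 38.9 CPM in KO (KO − WT log2 difference 0.09, SE 0.10). WT 2 lay below the other 5 libraries, and the coefficient of variation was 14.5% in WT and 3.21% in KO. Without WT 2 its log2 fold change was -0.02. Tigit, an inhibitory receptor gene lying 6265 bases from Zbtb20, had 227.6 CPM in WT, against 255.9 CPM in KO (log2 fold change 0.17, adjusted p = 0.194), and passed with the Y-linked share of each library as a covariate.

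By the fit across all genes 1 of the 7 tested members was called, Zbtb32, where 6.45% of all tested genes were called. DESeq2 and limma-voom also called 1, where they called 6.93% and 6.4% of all tested genes, and nothing is read from this count because the contrast chose it. The other 6 tested members had log2 fold changes between -0.07 and 0.13. Their sizes were near those of genes in general, whose median absolute log2 fold change was 0.11.

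Compared per kilobase of annotated exon, the 8 genes kept a wide order of levels. In WT, Zbtb7b was at 50.2 ± 2.58 CPM per kb (SD, n = 3), followed by Zbtb7a at 24.5 ± 0.71, Zbtb1 at 12.7 ± 0.56, Zbtb38 at 10.7 ± 0.23, Bcl6 at 5.30 ± 0.11, Zbtb32 at 3.18 ± 0.51, Zbtb20 at 1.23 ± 0.18 and Zbtb16 at 0.056 ± 0.041 CPM per kb. No 2 neighbours in that WT order overlapped over their 3 libraries. In KO, Zbtb32 was at 10.4 ± 1.29 CPM per kb, above Bcl6 at 5.79 ± 0.20 and overlapping Zbtb38 at 10.2 ± 0.42. The exon length of Zbtb20 is 30.73 kb over all annotated transcripts, and if its cells use shorter ones its level per kb is understated. Among the 43 BTB zinc finger genes tested, Zbtb32 held place 32 by level in WT and place 14 in KO, while Zbtb7b and Zbtb7a held places 1 and 2 in both.

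**Figure D3:**
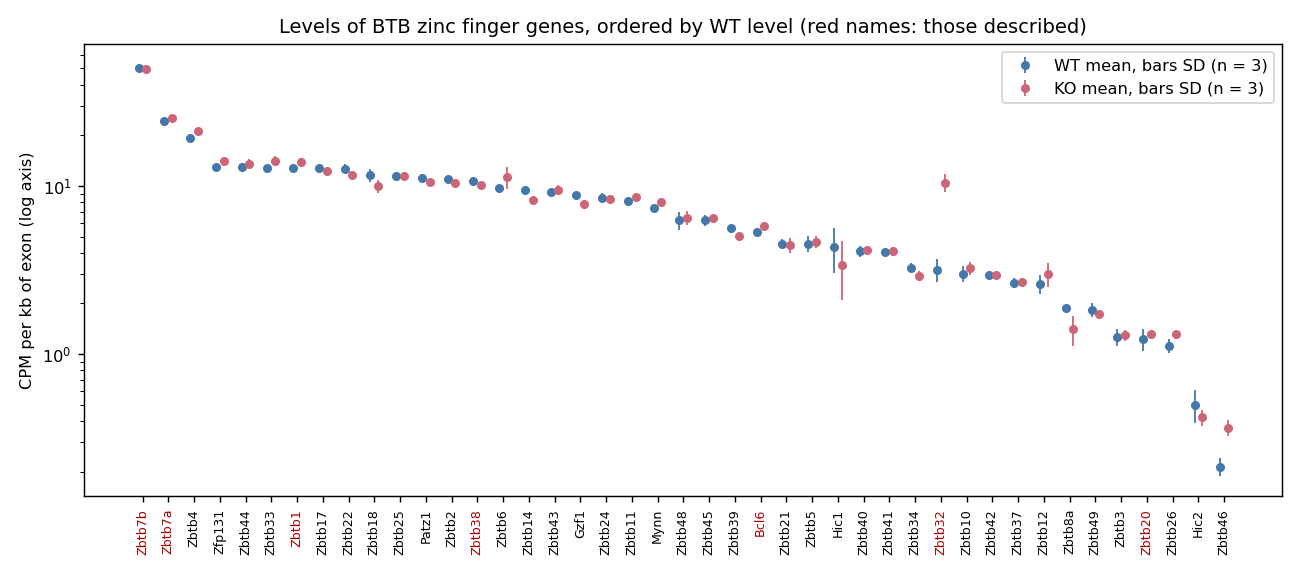
CPM per kb of exon (log axis) for the 43 BTB zinc finger genes tested, ordered by WT level, as mean and SD of 3 WT (blue) and 3 KO (red) libraries. Zbtb32 moves from 3.18 to 10.4 CPM per kb, while Zbtb7b stays near 50 at the left end.

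The rest of the family gives the setting for Zbtb32. Of 41 other BTB zinc finger genes listed, 40 were matched by symbol and 36 passed the low-count filter. By edgeR 0 of the 36 were called, against 6.45% of all tested genes, and DESeq2 and limma-voom also called 0. At an unadjusted p under 0.05 there were 10, 6 of them higher and 4 lower, or 10 of 36 where 20.4% of all tested genes were that low. Their log2 fold changes ran from -0.40 to 0.77 with a median of 0.01, beside a median of 0.00 over all tested genes. By the mean of both genotypes the highest levels per kb were those of Zbtb4, a binder of methylated DNA (156.3 ± 5.06 CPM in WT, against 171.3 ± 5.13 CPM in KO, log2 fold change 0.13, adjusted p = 0.151), Zfp131 (log2 fold change 0.13, adjusted p = 0.204) and Zbtb33, which encodes Kaiso (0.14, adjusted p = 0.221). In WT alone Zbtb44 (12.90 CPM per kb) stood just above Zbtb33 (12.77). Exons of Zbtb33 overlap those of Tmem255a on the other strand, which makes its count uncertain.

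The other family member farthest from 0, named here after its values were seen, was Zbtb46, a factor of conventional dendritic cells. It had 36, 33 and 38 reads in WT and 63, 67 and 62 in KO, 1.82 ± 0.21 against 3.11 ± 0.34 CPM (SD, n = 3). The groups did not overlap, but the log2 fold change of 0.77 (SE 0.21) missed the threshold (edgeR adjusted p = 0.0601). It passed with no filter (adjusted p = 0.0451), with a filter at a mean of 2 CPM (0.0454) and with the Y-linked share as a covariate (0.0496), and over all alternatives its adjusted p reached 0.255. The 7 dendritic cell markers summed to between 0.384 and 0.555 CPM in WT, against 1.11, 2.24 and 0.133 CPM in KO, with Clec9a and Cd209a at 0 reads in WT. Of the 7 markers 0 passed the low-count filter. Zbtb46 was at 3.17, 3.41 and 2.74 CPM in KO 1, 2 and 3. The part of dendritic cells in the Zbtb46 level was not tested.

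**Figure D4:**
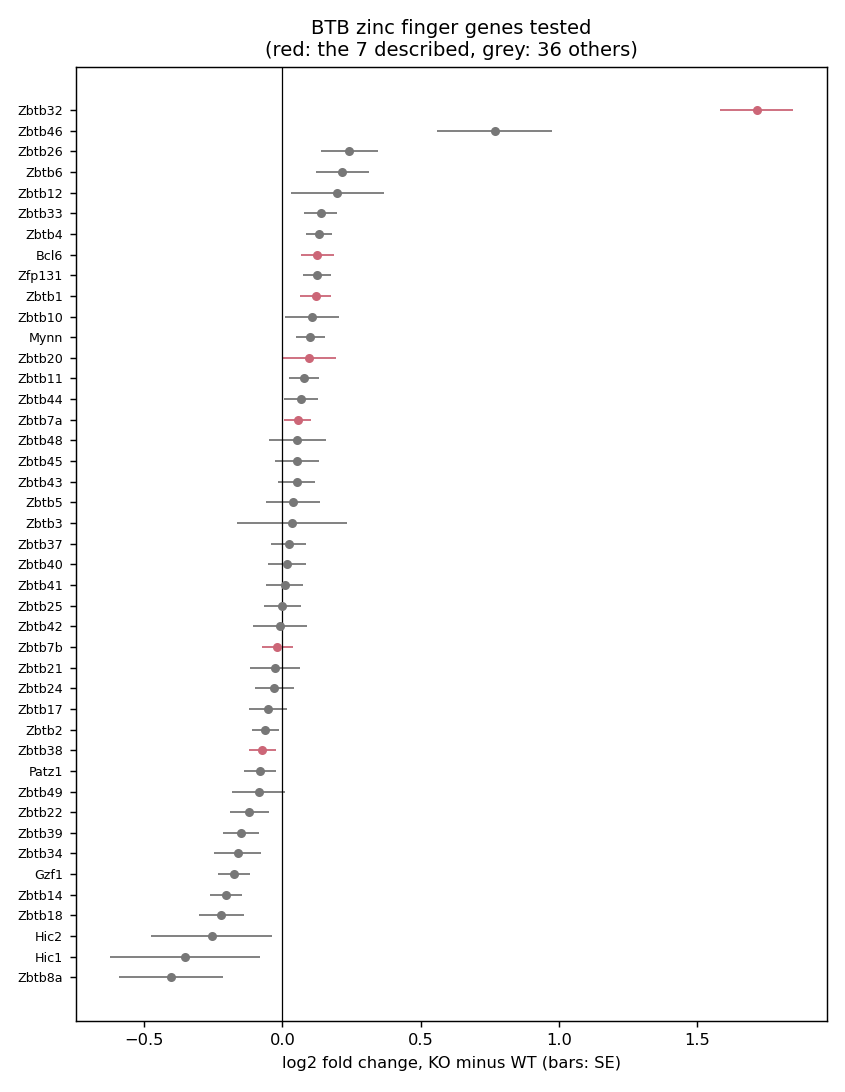
Log2 fold change (KO minus WT) with its SE for the 43 BTB zinc finger genes tested, sorted by value, with the 7 tested members in red and the 36 others in grey. Zbtb32 lies at 1.71, Zbtb46 at 0.77, and the other genes between -0.40 and 0.24.

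Genes of the proteins through which BTB domains act changed in both directions. Of 18 co-repressor and partner genes, all tested, 1 rose, 2 fell and 15 were not called, which is 16.7% called beside 6.45% of all tested genes, with a median log2 fold change of 0.00. Hdac4, a class IIa histone deacetylase, fell from 56.5 ± 1.49 to 46.5 ± 1.02 CPM (KO − WT log2 difference -0.28, SE 0.05, edgeR adjusted p = 0.0129), though a non-coding gene on the opposite strand shares 22.4% of its exon length. Nacc1, a BTB protein without zinc fingers, fell from 166.4 ± 3.96 to 142.5 ± 0.58 CPM (KO − WT log2 difference -0.22, SE 0.04, adjusted p = 0.0150). Hdac5 rose from 41.6 ± 2.41 to 50.7 ± 2.03 CPM (KO − WT log2 difference 0.29, SE 0.06, adjusted p = 0.0265). Without WT replicate 1 the count was 0. Core partners were not among those called: Ncor1 showed a log2 difference of 0.06 (adjusted p = 0.567), Bcor of 0.00 (adjusted p = 0.993) and Hdac3 of -0.14 (adjusted p = 0.252).

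Genes that these repressors are known to hold down moved both ways. The lists of such genes, here and below, were also chosen with earlier results of these data known. Their called shares are a description and do not show that targets of a repressor changed more than other genes. Of 19 genes repressed by BCL6 in lymphocytes, 5 rose and 2 fell, where 3.25% of all tested genes rose and 3.2% fell, and the median log2 fold change was -0.03, with 9 genes above 0 and 10 below. Ccr6, the CCL20 receptor (log2 fold change 0.95), Rora (0.63), Irf4 (0.28), Bcl2l1 (0.40) and Runx2 (0.35) rose. Falls were those of Id2, an inhibitor of E proteins (-0.35, edgeR adjusted p = 0.0117), and of the activation marker Cd69 (-0.24, adjusted p = 0.0382). Bcl2l1, Runx2 and Cd69 were named after their values were seen, and their calls were lost without WT 1 and without WT 2. Prdm1, which encodes Blimp-1 and is the best known target of BCL6, was at 82.1 ± 4.31 CPM in WT, against 74.9 ± 3.33 CPM in KO (log2 fold change -0.13, adjusted p = 0.228). The count went from 7 to 3 without WT replicate 1 and to 4 without WT replicate 2.

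Of 11 CD8-lineage genes that ThPOK keeps low in CD4 T cells, 9 were tested, 1 rose and 1 fell, or 22.2% called beside 6.45% of all tested genes. These were the granule genes Gzmb (23.8 ± 1.69 to 92.2 ± 13.6 CPM) and Prf1 (12.0 ± 0.69 to 7.53 ± 1.47 CPM, log2 fold change -0.68, edgeR adjusted p = 0.0221). The call of Prf1 was lost when any 1 WT library was left out. Cd8a stayed at or under 1.83 CPM in every library, and Cd8b1 was at 12.8 ± 2.09 CPM in WT, against 11.9 ± 0.93 CPM in KO. Cd4 itself showed a log2 difference of -0.01 (adjusted p = 0.940). Of 14 innate-like T cell genes linked to PLZF, 10 were tested, 1 rose and 2 fell, or 3 of 10 beside 6.45% of all tested genes. Il18r1 rose (KO − WT log2 difference 0.82, SE 0.11, adjusted p = 0.00232) and Klrb1c, the NK1.1 antigen, fell from 2.58 ± 0.38 to 1.17 ± 0.33 CPM (-1.14, SE 0.27, adjusted p = 0.0353). Klrb1c has close paralogs and shares exon sequence with Gm44511, so its count is uncertain, and its call was lost in 7 of 14 alternatives: without any 1 WT library, without KO 2, without KO 3, with the Y-linked share as a covariate and without the libraries lacking Y-linked transcripts.

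Genes tied to ZBTB32 were few in these cells. Of 7 cytokine and class II genes linked to its repression, 3 were tested and edgeR, DESeq2 and limma-voom called 0 of them, with 0 at an unadjusted p under 0.05. Gata3, whose protein ZBTB32 can block, was at 96.1 ± 1.92 CPM in WT, against 94.4 ± 5.95 CPM in KO (log2 fold change -0.03, adjusted p = 0.846). Ciita, the master activator of class II genes, had 19 reads in each WT library and 8, 18 and 13 reads in KO (KO − WT log2 difference -0.62, SE 0.36, adjusted p = 0.379). Ifng had 1.07 ± 0.28 CPM in WT, against 1.12 ± 0.27 CPM in KO. Il4 had between 5 and 18 reads in a library, Il2 between 1 and 7, Il13 5 reads in KO 1 and 0 in the other libraries, and Il5 no read, so differences in these 4 cytokines were not detectable at this depth.

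**Figure D5:**
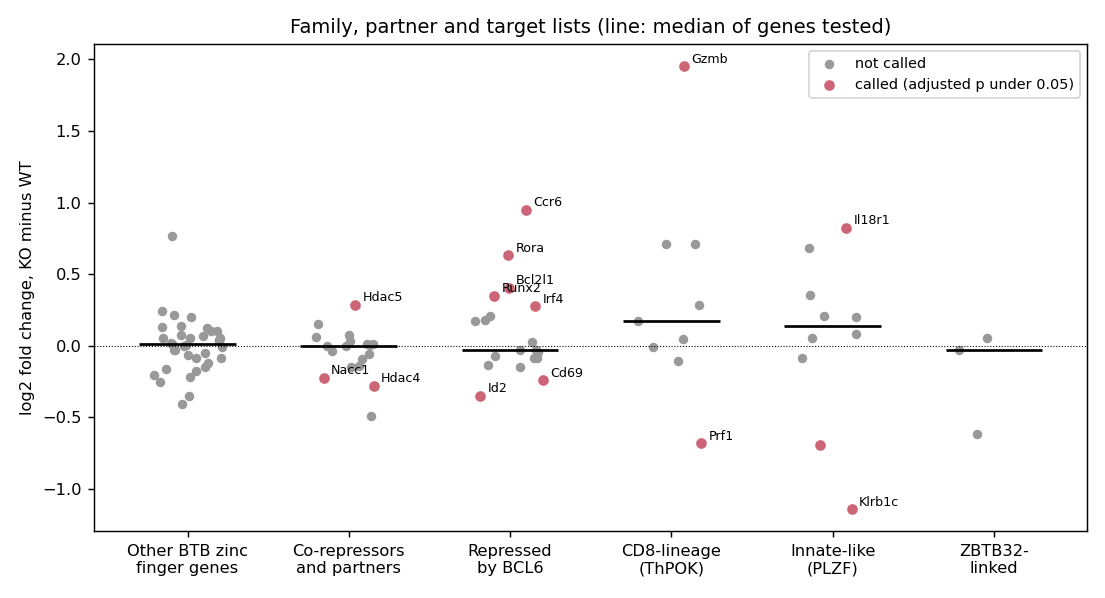
Log2 fold change (KO minus WT) of the tested genes of 6 lists, with called genes in red (those given in the text are named), others in grey, and the median of each list as a line. In the BCL6 list 5 genes lie above and 2 below 0 among those called, and no gene of the other BTB zinc finger list is called.

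Genes with a pattern over the 6 libraries near that of Zbtb32 were found by the root mean square difference of centred log2 values. The search covered tested genes whose mean CPM reached 2. Genes with predicted-gene or clone names and antigen receptor segments were left out. The nearest of the rest were Igsf9b (difference 0.17 log2 units), Maged1 (0.18), Ccr10 (0.19), Gzmb (0.20) and Dscam (0.20). Igsf9b, an immunoglobulin superfamily adhesion gene, had 4.93, 4.06 and 5.95 CPM in WT, against 15.9, 14.8 and 16.5 CPM in KO. Gzmb, encoding granzyme B, had 24.4, 21.9 and 25.2 CPM in WT, against 80.4, 89.0 and 107.1 CPM in KO. All 5 had 3 KO libraries above the 3 WT libraries, which the choice of likeness to Zbtb32 brings with it. The span of Cntnap1 encloses Ccr10, which makes the Ccr10 count uncertain.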

How the data were processed

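The table deposited by the authors holds whole-number read counts for each gene and library, not normalized. Tools in the submitters' processing notes are HISAT2 2.1.0, fastp 0.23.2, DESeq2 1.34.0 and Picard, with build mm10. The tool that counted the reads, any removal of duplicates, the annotation and the use of strand were not given in the sources used here. Where strand was ignored, overlapping genes on opposite strands share reads. The 27 symbols that a spreadsheet had turned into dates were restored by gene identifier. Exon lengths and overlaps came from GENCODE M21 (same build), promoters from RefSeq.

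Genes were kept by filterByExpr (minimum count 10, total 15), scaled by TMM and tested in R 4.3.3 with edgeR 4.0.16 (quasi-likelihood) at a Benjamini-Hochberg adjusted p under 0.05 over 13602 genes. A chi-square per degree of freedom of at least 5.03 separated libraries of a genotype. With 3 libraries against 3, an exact permutation test cannot go below p = 0.1. The members and the 15 gene lists were chosen with earlier results of these data known. Besides the members, the text names Smarcd2, Foxp3, genes within 10 kb, up to 4 called genes of each list (or that with the smallest p), the 3 highest other family genes and the 5 nearest in pattern (pseudocount 0.5 CPM). Some genes so named are not described singly, and some list genes are not reported here by name. Alternatives were other scalings and filters, DESeq2 1.42.0, limma-voom (limma 3.58.1), the replicate number as a block, a covariate for Y-linked transcripts, a table without antigen receptor segments, sex-linked genes and other-cell markers, and each library left out. The fit without the libraries lacking Y-linked transcripts was chosen after seeing the data. In simulated counts of KO against WT over 13602 genes, a 1.25-fold change was called in 28% of the genes so changed. For a 1.5-fold change it was 68% and for a 4-fold change 98%, and 8 of all 143 calls were false. A gene not called may therefore still differ by a small fold.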

Additional observations from a re-analysis of the deposited data

How the results depend on the processing

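The log2 fold change of Zbtb32 lay between 1.55 and 1.85 over the 16 alternatives, a description only, since the set was selected on this contrast. The sign of the log2 fold change of Zbtb7b and Zbtb20 changed with 1 library left out. Without a filter on low counts 1624 genes passed in all, in place of 877, and 2 other BTB zinc finger genes in place of 0, Zbtb46 higher and Zbtb18 lower. That count was 1 with a filter at a mean of 2 CPM and 1 with the Y-linked share as a covariate, Zbtb46 in both, and between 0 and 0 with 1 library left out. Without the libraries lacking Y-linked transcripts, which leaves 2 against 2, 186 genes passed in all, 0 co-repressor and partner genes, 2 genes repressed by BCL6, 1 CD8-lineage gene and 1 innate-like gene. With 1 library left out the count of all genes ran from 344 to 848, of co-repressor and partner genes from 0 to 3, of genes repressed by BCL6 from 3 to 7, of CD8-lineage genes from 1 to 3 and of innate-like genes from 2 to 4. The lowest total was that without WT replicate 1 or WT replicate 2, and the count of CD8-lineage genes was 1 without any 1 WT library. Calls named in the report were lost by Hdac4 and Id2 without WT replicate 1, by Nacc1 without WT replicate 1 or 2, and by Hdac5 without KO replicate 2, WT replicate 1 or WT replicate 3. Bcl2l1 and Cd22 lost theirs without WT replicate 1 or 2, Cd79b without WT replicate 1, Sdc1 and Prf1 without any 1 WT library, Runx2 and Cd69 without any of 5 single libraries, and Icos without any of 5 and with the block. All of these genes, Klrb1c, Irf4, Maged1 and Ccr10 lost theirs without the libraries lacking Y-linked transcripts. The cause of these moves was not tested. Same-numbered libraries of the 2 genotypes had deviations correlated between -0.14 and 0.15, and differently numbered ones between -0.21 and 0.23. With 3 libraries per genotype this cannot decide whether a number marks a shared litter or day, which the labels do not say. With the replicate number as a block 738 genes passed, and the follicular list went from 1 to 0 with the loss of Icos, while the counts of the other lists were those without it. Genes under about 10 reads per library, Zbtb16 and the cytokines among them, are limited by depth.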
